A study of Mus musculus with 15 samples.

Results

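The Myb family of mouse transcription factors comprises *Myb* (c-Myb), *Mybl1* (A-Myb), and *Mybl2* (B-Myb), and its transcripts were followed through ex vivo B cell differentiation. The 3 genes were chosen by symbol from the 21669 genes with a symbol in the table, as a family selected on its values in the 5 groups with earlier results of these libraries known. Their levels and differences are therefore descriptions. Whether the fit across all genes called a member is recorded below, but these calls rest on the values that chose the family and are no evidence for it. All 3 passed the filter on expression that 11299 genes passed. RNA-seq was performed on naive splenic B cells (nB), isolated as CD43-, and on cells sorted after 3 days of culture. Of these, activated B cells (actB) were B220+, GL7+, and CD138-, and plasmablasts (Pb) were CD138+. All cells came from female wild-type C57BL/6J mice aged 6 to 9 weeks, and all cultures held LPS and Il2. Cultures held 2 μM GSK343, an inhibitor of the H3K27 methyltransferase EZH2, or its solvent DMSO, while nB received neither and no stimulus. The third stimulus was Il5 in 3 cultured groups, whereas the 3 Pb libraries with GSK343 carry Il6 in its place in their stimulation label, although their protocol text names Il5. If the stimulation label holds, GSK343 against DMSO in Pb cannot be told apart from Il6 against Il5.

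Each group has 3 deposited columns, and the columns of nB numbers 1 and 2 hold the same library, differing by less than the sampling noise (chi-square per degree of freedom 0.00958, against 3.58 to 29.7 for the other pairs of a group). They were counted as 1 sample, which leaves 14 libraries, with n = 2 in nB and n = 3 in every other group. The libraries hold 19421830 to 26307413 reads. The members are covered by 115 to 6353 reads in a library, with the fewest for *Mybl1* in nB. RPKM (reads per kilobase of gene length and 1000000 reads) is the level used below, since it compares genes of unlike length. Differences are of log2(RPKM + 0.25) between group means, with a standard error (SE) from a fit of limma across all genes. A gene is "called" at an adjusted p under 0.05.

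Myb proteins bind DNA through a conserved repeat domain and act as transcriptional activators. c-Myb is required in early lymphoid and other hematopoietic progenitors and is down-regulated as these mature. A-Myb is best known in male germ cells, where it activates meiotic and piRNA genes, and in B cells is associated with germinal center cells. B-Myb is present in most dividing cells, is itself induced by E2F at the entry into S phase, and joins the MuvB complex to activate genes of G2 and mitosis.

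In mm9, *Myb* (Entrez 17863) lies on the minus strand of chromosome 10 from 20844736 to 20880790, with 16 exons in its longest annotated transcript. *Mybl1* (Entrez 17864) lies on the minus strand of chromosome 1 from 9657496 to 9690290, with 17 exons. *Mybl2* (Entrez 17865) lies on the plus strand of chromosome 2 from 162880423 to 162910424, with 14 exons. No annotated gene overlaps *Mybl1* or *Mybl2*, and 1 long noncoding RNA gene, *Gm16786*, overlaps *Myb* on the other strand. Whether strand was used in the counting is not given, so reads of that RNA could have been counted for *Myb*. The 3 genes lie on different chromosomes and share no neighbor.

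Upstream sequence is shown for *Myb* and *Mybl2*, because *Mybl2* is a known E2F target and the window of *Myb* holds the same letters close to its start. The RefSeq promoter windows, in build GRCm38.p6, cover the 250 bases before the start of each gene on its own strand, at chr10:21160985-21161234 (minus strand) for *Myb* and chr2:163054385-163054634 (plus strand) for *Mybl2*. *Mybl1* is not in that table. Capitals mark the letters GGCGGGA, a form of the E2F motif.

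*Myb*: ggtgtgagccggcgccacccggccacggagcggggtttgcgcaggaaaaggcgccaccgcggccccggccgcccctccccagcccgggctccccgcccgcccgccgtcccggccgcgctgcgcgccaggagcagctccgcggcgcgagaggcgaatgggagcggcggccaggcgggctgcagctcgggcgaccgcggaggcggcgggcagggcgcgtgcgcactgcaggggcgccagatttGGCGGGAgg

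*Mybl2*: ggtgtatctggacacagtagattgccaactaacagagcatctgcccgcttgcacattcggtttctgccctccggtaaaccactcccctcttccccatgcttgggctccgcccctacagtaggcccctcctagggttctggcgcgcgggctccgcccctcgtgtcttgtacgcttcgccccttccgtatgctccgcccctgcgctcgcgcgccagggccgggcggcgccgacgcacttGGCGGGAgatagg

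Both windows held GGCGGGA once, in the same orientation and close to the start, with its first base 9 bases before the start in *Myb* and 13 bases before it in *Mybl2*. Counting both strands, 9.75% of 32851 windows held it. Counted by gene, where any window of a gene could hold it, it was found for 7 of 20 genes of the G2/M list. For the S phase list it was 3 of 14 genes, and both lists are introduced below. The counts by gene and the share by window are unlike measures where a gene has several windows. The window of *Mybl2* also held the Myb core AACNG at 2 places, and that of *Myb* held none, where 74.2% of windows had a match. Neither held TTTGAA, a form of the cell cycle homology region (held by 5252 of the 32851 windows), or CCAAT (33.8% of windows), on either strand. These motifs were chosen after the sequences were seen, they do not overlap within these windows, and a match is a description of the letters only. The windows differ in composition, with 81.2% G and C in *Myb* and 65.6% in *Mybl2*.

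*Mybl2* was the most abundant member in every cultured group and stood far below *Myb* in nB. In nB its level was 2.44 RPKM in the merged library and 1.72 RPKM in library 3. In actB with DMSO, libraries 1, 2, and 3 had 66.5, 59.8, and 70.7 RPKM, and with GSK343 they had 65.2, 55.0, and 60.4 RPKM. In Pb the same numbers had 30.7, 27.3, and 34.0 RPKM with DMSO, and 27.3, 26.4, and 28.3 RPKM with GSK343. Thus every cultured library lay far above nB, the 6 actB libraries lay above the 6 Pb libraries, and the 2 treatments overlapped in each cell type.

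*Myb* varied least and was the highest member in nB. Its levels there were 6.79 and 7.51 RPKM. Libraries 1, 2, and 3 of actB had 10.7, 9.13, and 9.79 RPKM with DMSO, and 9.80, 9.06, and 9.11 RPKM with GSK343. In Pb with DMSO they had 8.37, 7.33, and 8.31 RPKM, where library 2 lay within the range of nB. In Pb with GSK343 they had 15.4, 12.6, and 13.1 RPKM, so that all 3 lay above the other 11 libraries.

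*Mybl1* was low in nB and highest in actB with GSK343. The nB libraries had 1.62 and 1.41 RPKM, from 133 and 115 reads. In actB with DMSO, libraries 1, 2, and 3 had 13.9, 8.69, and 15.4 RPKM, and with GSK343 they had 20.3, 15.4, and 25.3 RPKM. Within each treatment library 2 was the lowest, and the GSK343 library numbered 2 lay just below the DMSO library numbered 3, so the groups overlap. In Pb the levels were 7.15, 6.97, and 7.74 RPKM with DMSO and 9.61, 7.48, and 9.59 RPKM with GSK343, where library 2 was again the lowest.

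**Figure D1:**
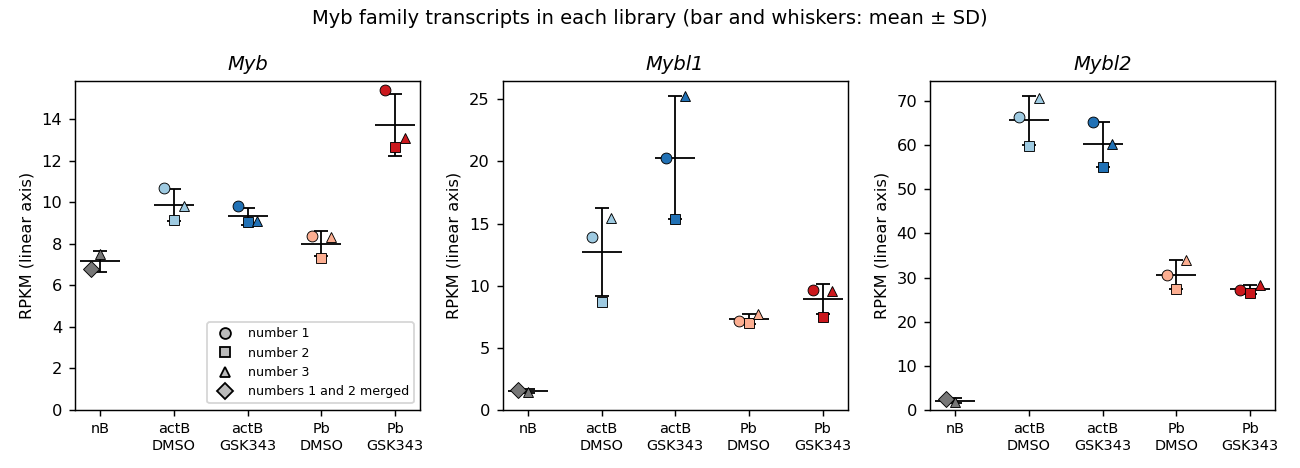
RPKM of *Myb*, *Mybl1*, and *Mybl2* (linear axes from 0) in the 14 libraries by group, with symbols for the replicate number and a bar with whiskers for the mean ± SD. *Mybl2* stands at 55.0 to 70.7 RPKM in actB and 26.4 to 34.0 RPKM in Pb, and *Myb* is highest in Pb with GSK343.

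Ordered by mean level, *Mybl2* ran from actB with DMSO (65.6 ± 5.47 RPKM, SD, n = 3) and actB with GSK343 (60.2 ± 5.10), which overlapped, to Pb with DMSO (30.7 ± 3.33) and Pb with GSK343 (27.3 ± 0.984), which overlapped as well, and to nB (2.08 ± 0.506, n = 2). For *Mybl1* the order was actB with GSK343 (20.3 ± 4.95), actB with DMSO (12.7 ± 3.54), Pb with GSK343 (8.89 ± 1.2), Pb with DMSO (7.28 ± 0.402), and nB (1.52 ± 0.149, n = 2). Each group overlapped with its neighbor in this order except Pb with DMSO and nB. For *Myb*, Pb with GSK343 (13.7 ± 1.48) came first and did not overlap with actB with DMSO (9.87 ± 0.782), which overlapped with actB with GSK343 (9.33 ± 0.416). Next came Pb with DMSO (8.0 ± 0.585), which lay below actB with GSK343 and overlapped with nB (7.15 ± 0.509, n = 2).

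The make-up of the family turned over between nB and culture. *Myb* accounted for 62.6% and 70.6% of the summed RPKM of the 3 genes in the nB libraries, and for 9.61% to 11.8% in the 6 actB libraries. *Mybl2* accounted for 73.0% to 77.0% in actB with DMSO, 63.7% to 69.2% in actB with GSK343, 65.7% to 67.9% in Pb with DMSO, and 52.2% to 56.7% in Pb with GSK343. The share of *Mybl1* was highest in actB with GSK343, at 19.3% to 26.7%. With GSK343 the share of *Myb* in Pb was 25.7% to 29.5%, against 16.6% to 18.1% with DMSO. The summed level was 10.7 ± 0.146 RPKM in nB (n = 2), 88.2 ± 9.46 RPKM in actB with DMSO, and 45.9 ± 4.21 RPKM in Pb with DMSO (n = 3 each).

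**Figure D2:**
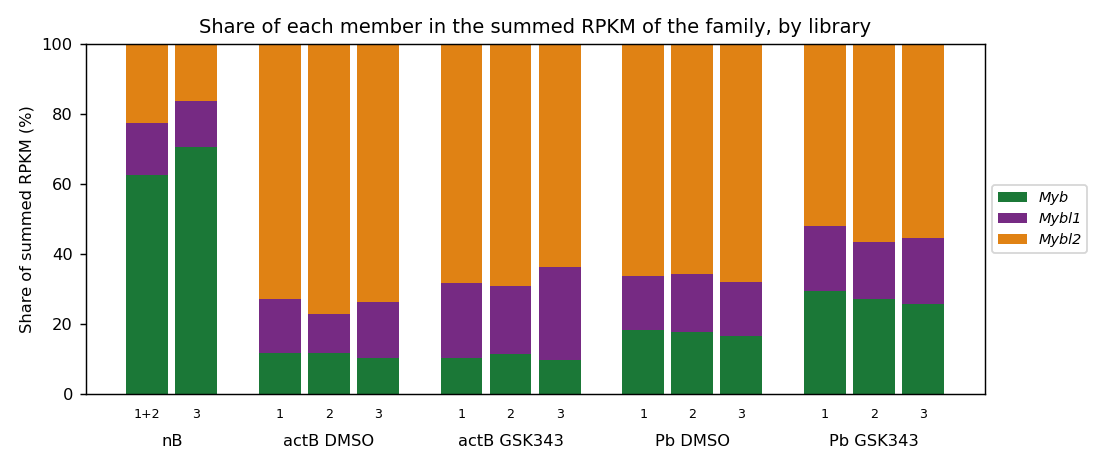
Stacked bars give, for each library (numbers under the bars), the percent of the summed RPKM of the family held by *Myb*, *Mybl1*, and *Mybl2*. *Myb* holds over 62% in both nB libraries, and *Mybl2* holds the largest part in every cultured library.

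Between nB and actB with DMSO, which asks how the family changes on activation, all 3 members were higher in actB. The difference for *Mybl2* was 4.84 on the log2 scale (SE 0.13), a ratio of 28.6 (95% interval 23.6 to 34.6). For *Mybl1* it was 2.83 (SE 0.23), a ratio of 7.13 (5.05 to 10.1). For *Myb* it was 0.45 (SE 0.097), a ratio of 1.37 (1.18 to 1.58). All 3 members were called higher, in a comparison where 77.2% of all genes tested were called, 40.9% higher and 36.3% lower.

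The nB libraries also hold RNA of other cells. The 8 T and NK cell markers sum to 25.4 and 28.1 RPKM in nB and to 0.148 to 0.689 RPKM in the 12 cultured libraries. All 8 were called lower in actB, but none reached an RPKM of 1 in culture. Each thus passed the filter through its nB columns alone, so this direction was set by the filter and only the levels are read. The 8 myeloid markers sum to 195 and 239 RPKM in nB, most of it *Lyz2*, and to 0.484 to 14.1 RPKM in culture. Of these, *S100a8* and *S100a9* had no read in culture and *Itgam* was at 4.27 RPKM in actB with DMSO. Of 7 erythroid and progenitor markers in the table, which sum to 33.3 and 139 RPKM in nB and 1.91 to 18.7 RPKM in culture, only *Hbb-b1* and *Kit* passed the filter, and both fell. The defining B cell genes *Cd79a* and *Pax5* were at 1158 and 321 RPKM in nB. The part of other cells in the level of *Myb* in nB was not tested, and in bulk samples fewer cells of a type and less RNA per cell cannot be told apart.

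Between actB and Pb with DMSO, which asks how the family differs in plasmablasts, all 3 members were lower in Pb. The difference was -1.09 for *Mybl2* (SE 0.11), a ratio of 0.468 (95% interval 0.395 to 0.556), with same-number ratios of 0.461, 0.457, and 0.481. For *Mybl1* it was -0.74 (SE 0.21), a ratio of 0.599 (0.439 to 0.816). For *Myb* it was -0.29 (SE 0.087), a ratio of 0.815 (0.715 to 0.930). The median of all genes was itself at -0.12, and relative to it the differences were -0.98, -0.62, and -0.18 for *Mybl2*, *Mybl1*, and *Myb*. All 3 members were called lower, in a comparison where 69.7% of genes tested were called, 42.4% lower and 27.3% higher. With each library scaled to a common median *Myb* was not called.

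Against nB, which shares its libraries with the comparison of actB, Pb with DMSO had 3.74 (SE 0.13) for *Mybl2*, 2.09 (SE 0.23) for *Mybl1*, and 0.16 (SE 0.097) for *Myb*. Here 2 members were called higher, where 80.6% of genes tested were called, 39.5% higher and 41.1% lower. With a block for the replicate number, or without the cultured libraries numbered 2, *Myb* was called as well (0.16 and 0.22). In the block the merged nB library was coded in equal part as numbers 1 and 2, since its own number is not known. In Pb, *Mybl2* thus stood at 13.4 times its level in nB (95% interval 11.04 to 16.2), whereas the interval for *Myb* reached from 0.962 to 1.29 times.

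**Figure D3:**
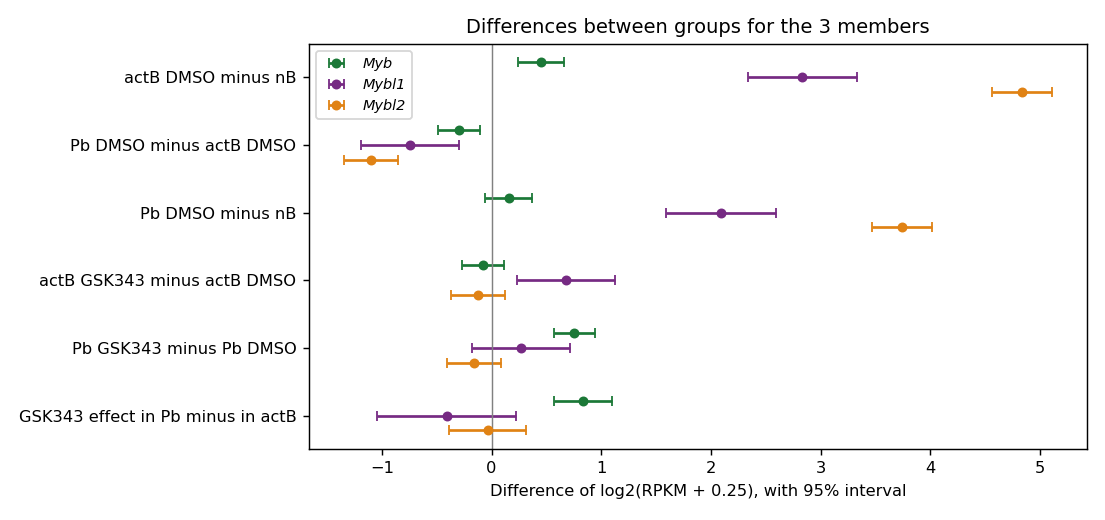
Differences of log2(RPKM + 0.25) between group means for *Myb*, *Mybl1*, and *Mybl2*, with 95% intervals from the limma fit, in 6 comparisons that in part share libraries. *Mybl2* reaches 4.84 in actB against nB, and *Myb* is at 0.83 in the last row, the difference between the effects of GSK343. The family was chosen with these values known, so the intervals are descriptions.

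In actB with GSK343 against DMSO, the intervals of *Mybl2* and *Myb* included 0, with differences of -0.12 (SE 0.11, 95% interval -0.37 to 0.12) and -0.078 (SE 0.087, interval -0.27 to 0.11). Their ratios by replicate number were below 1 in every pair, at 0.981, 0.920, and 0.854 for *Mybl2* and 0.917, 0.992, and 0.930 for *Myb*. *Mybl1* was 0.68 higher (SE 0.21, interval 0.23 to 1.13), a ratio of 1.60 (1.18 to 2.18). Compared by replicate number, the ratios of *Mybl1* were 1.46, 1.77, and 1.64. In limma none of the members was called, with 1 (*Mybl1*) at an unadjusted p under 0.05 and 1 called by edgeR on recovered reads, in a comparison where 10.4% of genes tested were called. With a block for the replicate number *Mybl1* was called, in a fit where 2248 rather than 1170 genes were called, and without actB DMSO library 3 (difference 0.84) or actB GSK343 library 2 (0.86). It was also called with the cultured libraries numbered 2 left out (0.62). Among markers of other cells, 2 of 7 myeloid genes tested rose with GSK343 and the 8 listed sum to 8.31 to 14.1 RPKM against 4.14 to 5.44 RPKM with DMSO, of which *Itgam* holds 9.95 and 4.27 RPKM, with *S100a8* and *S100a9* at 0. Of the 9 plasmablast markers *Sdc1*, *Jchain*, and *Ell2* rose by 0.41, 0.37, and 0.27 and *Slamf7* fell by 0.43 (limma adjusted p = 0.0422, 0.0277, 0.0425, and 0.00396), and the block called 6 higher and 1 lower. Of the 9 B cell markers *Fcer2a* fell by 0.91 (adjusted p = 0.0373), and the calls of *Fcer2a* and *Sdc1* were lost in 5 and 4 of 6 fits that left out 1 library. *Jchain* and *Ell2* were named after their values were seen. The part of these markers in the level of *Mybl1* was not tested.

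In Pb with GSK343 against DMSO, the largest difference among the members was that of *Myb*. *Myb* was 0.76 higher (SE 0.087, 95% interval 0.57 to 0.95), a ratio of 1.69 (1.48 to 1.93), and the ratios by replicate number were 1.84, 1.72, and 1.58. *Mybl1* had a difference of 0.27 (SE 0.21, interval -0.17 to 0.72), with ratios of 1.34, 1.07, and 1.24. *Mybl2* had -0.16 (SE 0.11, interval -0.41 to 0.087), with ratios of 0.889, 0.966, and 0.834. The fit called 1 member, *Myb*, from the values that chose it, so nothing is read from that call or from the 12.9% of genes tested that were called, and the stimulation label changes with the drug here.

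The effect of GSK343 on *Myb* in Pb minus that in actB was 0.83 (SE 0.12, 95% interval 0.57 to 1.10). For *Mybl1* it was -0.41 (SE 0.29, interval -1.04 to 0.22) and for *Mybl2* -0.035 (SE 0.16, interval -0.38 to 0.31), so a difference between the cell types was not resolved for either. Without 1 library the value of *Mybl1* ran from -0.59 (without actB GSK343 library 2) to -0.16 (without actB DMSO library 2). The fit called *Myb*, and 0.248% of genes tested, and since the family was chosen with this value known nothing is read from the call. It was lost with the compared groups alone and when any of 9 of the 12 cultured libraries was left out, and it was kept without actB DMSO library 2, actB GSK343 library 2, or Pb GSK343 library 2. Over these 12 fits the value was 0.75 to 0.89.

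Of the 6 nearest genes on either side of the members, taken by position after the members' values were seen, 4 passed the filter, and *2610203C22Rik* beside *Mybl1* and *Gtsf1l* beside *Mybl2* were not tested. None of the 4 was called with GSK343 in either cell type. *Ahi1* and *Hbs1l*, which flank *Myb* at 44.5 and 135 kb, had differences of -0.094 (SE 0.096, limma adjusted p = 0.593) and 0.054 (SE 0.044, adjusted p = 0.491) in Pb. *Vcpip1*, 18.4 kb from *Mybl1* and encoding a deubiquitinase, had -0.099 (SE 0.064, adjusted p = 0.385) in actB. *Ift52*, 8.54 kb from *Mybl2* and a gene of intraflagellar transport, fell by 0.58 in Pb against actB (SE 0.052, adjusted p = 6.22e-07). In the same comparison *Ahi1* fell by 0.58 (SE 0.096, adjusted p = 1.52e-04), *Hbs1l* rose by 0.78 (SE 0.044, adjusted p = 1.00e-08) beside a lower *Myb*, and *Vcpip1* had -0.041 (SE 0.064, adjusted p = 0.589).

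The MuvB core, with which B-Myb and the DREAM repressor share their DNA binding, was present in all groups at 3.65 to 79.3 RPKM. Of its 5 genes 3 rose and 1 fell in actB against nB, with a median of 0.45 (0.053 over all genes). *Lin54*, the DNA-binding subunit, rose by 0.60 (SE 0.11, limma adjusted p = 2.03e-04), *Rbbp4* by 0.51 (SE 0.071, adjusted p = 2.67e-05), and *Lin9* by 0.45 (SE 0.12, adjusted p = 0.00527), whereas *Lin52* fell by 0.57 (SE 0.072, adjusted p = 1.26e-05). *Lin37* stood at 21.6 RPKM in nB and 19.7 in actB and was not called. In Pb against actB, *Lin54* rose by a further 0.90 (SE 0.094, adjusted p = 2.58e-06), to 16.4 RPKM, and *Rbbp4* fell by 0.30 (SE 0.063, adjusted p = 0.00102). No gene of the core was called with GSK343 in either cell type by limma or edgeR, and none had an unadjusted p under 0.05.

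Of the 8 other genes of the DREAM complex and its successor FoxM1, 5 rose and 3 fell in actB against nB. The largest rises were those of *Foxm1*, the activator that takes over from B-Myb at mitotic promoters, by 3.19 (SE 0.061, limma adjusted p = 7.87e-13), and of *Tfdp1*, the E2F dimerization partner, by 3.05 (SE 0.090, adjusted p = 1.73e-11). *Rbl1*, encoding p107, rose by 0.96, *E2f4* by 0.40, and *E2f5* by 0.37, with adjusted p of 3.07e-07, 0.00574, and 0.0119. *Rbl2*, encoding p130, *Tfdp2*, and *Dyrk1a*, the kinase that promotes DREAM assembly, fell by 0.48, 0.51, and 0.92, with adjusted p of 2.84e-05, 7.02e-04, and 1.11e-07. In Pb against actB, *Foxm1* rose by 0.68 (SE 0.055, adjusted p = 2.43e-07) while *Mybl2* was lower by 1.09. *Tfdp2* also rose, by 0.47, and *E2f5*, *Tfdp1*, *E2f4*, and *Dyrk1a* fell by 1.42, 0.61, 0.48, and 0.15. The call of *Dyrk1a* was lost in 8 of 15 alternatives, among them 4 of 6 that left out 1 library and median scaling (-0.041). With GSK343, *Tfdp2* rose by 0.35 (SE 0.093, adjusted p = 0.0341) and *Foxm1* by 0.21 (SE 0.055, adjusted p = 0.0304) in actB, of which edgeR called 1, and none of the 8 was called in Pb by either tool (1 at an unadjusted p under 0.05). Leaving out 1 library ended the call in actB in 4 of 6 fits for *Foxm1* and 5 of 6 for *Tfdp2*.

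All 25 G2/M genes on the list of B-Myb-MuvB and FoxM1 targets rose in actB against nB, with a median of 4.31. *Ccnb1*, encoding cyclin B1, rose by 4.97 (SE 0.19, limma adjusted p = 1.63e-10), from 2.29 to 80.1 RPKM, and *Top2a*, the most abundant in actB, went from 7.90 to 192 RPKM. Between actB and Pb these genes were split. Of the 25, 5 rose and 6 fell, the median was -0.026, against -0.12 over all genes, and the differences ran from -0.69 for *Kif23*, a kinesin of the midbody, to 0.49 for *Cdc20*, the activator of the anaphase-promoting complex. None of the 25 had a difference as low as that of *Mybl2*. With the cultured libraries numbered 2 left out the counts were 4 and 8, and with a block for the replicate number 7 and 7. No G2/M gene was called with GSK343 in either cell type by limma or edgeR, with 1 at an unadjusted p under 0.05 in each, and the block called 2 higher in actB and 2 lower in Pb.

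Of the 17 S phase genes on the E2F list, which also includes *E2f1*, 16 rose and *Cdt1* fell in actB against nB, with a median of 2.36. *Rrm2*, a subunit of ribonucleotide reductase, rose by 4.40 (SE 0.19, limma adjusted p = 4.36e-10), and *Pcna*, the sliding clamp and most abundant of the list, went from 116 to 308 RPKM. *Cdt1*, a replication licensing factor, fell by 0.22 (SE 0.091, adjusted p = 0.0398), a call lost in 5 of 14 alternatives, among them those without the merged nB library (-0.12) or actB DMSO library 2 (-0.16). Between actB and Pb 2 rose and 7 fell, with a median of -0.13, close to that of all genes. *Rrm1* had the lowest difference, -0.81 (SE 0.11, adjusted p = 2.84e-05), still above that of *Mybl2*, and *Cdt1* rose by 0.70 (SE 0.082, adjusted p = 7.12e-06). *E2f1* was the single gene of the list called with GSK343 in actB, 0.22 higher (SE 0.060, adjusted p = 0.0354), and none was called in Pb or had an unadjusted p under 0.05. The call of *E2f1* was lost in 5 of 6 fits that left out 1 library, and the block called 3 genes higher in each cell type.

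**Figure D4:**
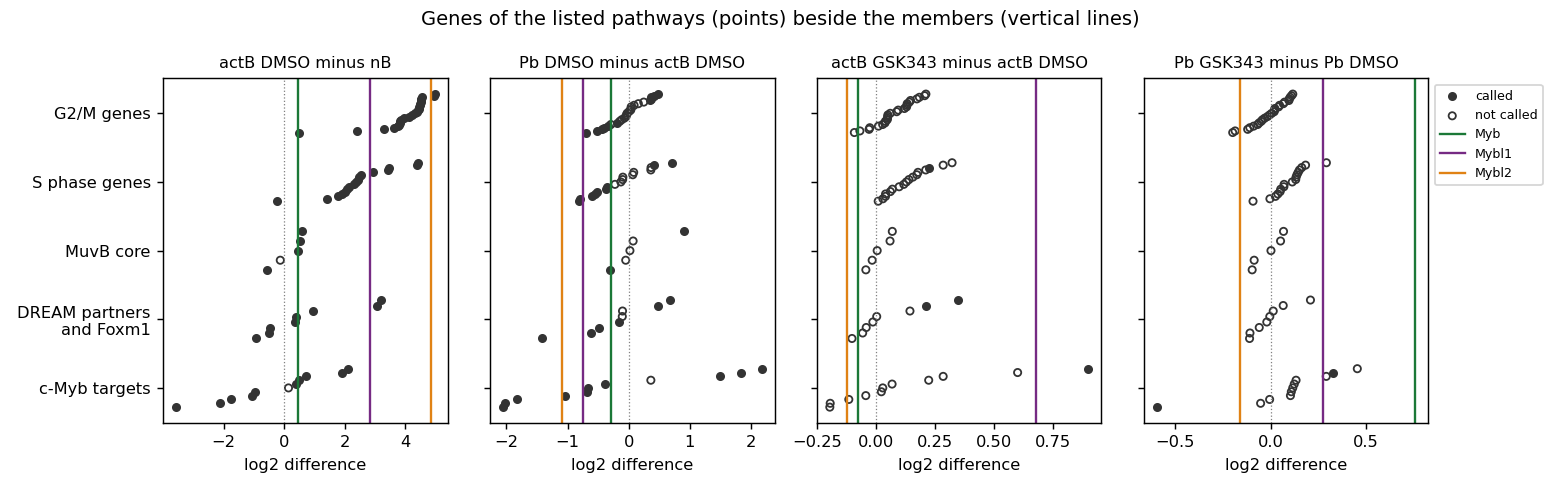
Log2 differences of single genes (points, filled where called) of 5 lists in 4 comparisons, with vertical lines for *Myb*, *Mybl1*, and *Mybl2*; the horizontal scales differ between panels. In Pb against actB the line of *Mybl2* at -1.09 lies left of all G2/M and S phase genes.

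Among 13 cofactors and regulators of Myb proteins, 6 rose and 6 fell in actB against nB, and 5 rose and 6 fell in Pb against actB. *Pim1*, a kinase that phosphorylates c-Myb and the most abundant of the list in culture, rose by 1.42 in actB (SE 0.091, limma adjusted p = 1.89e-08) and reached 445 RPKM in Pb with DMSO. *Cebpb*, a partner of c-Myb in myeloid cells, fell by 1.61 in actB (SE 0.46, adjusted p = 0.00611) and was 1.37 higher in Pb (SE 0.41, adjusted p = 0.00966), from a low 0.962 RPKM. The nB libraries hold RNA of myeloid cells, and its part in the level of *Cebpb* there was not tested. *Ppid*, which encodes a cyclophilin, fell by 0.89 in Pb against actB (SE 0.14, adjusted p = 1.27e-04). With GSK343, *Hipk2*, a kinase that can mark c-Myb for degradation, rose by 0.70 in actB (SE 0.14, adjusted p = 0.00950). *Nlk*, a kinase of the same pathway, rose by 0.25 in Pb (SE 0.063, adjusted p = 0.0209). No other gene of the 13 was called with GSK343, where the block called 2 higher in actB and 2 higher and 1 lower in Pb, and the call of *Nlk* was lost in 4 of 6 fits that left out 1 library.

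The 13 genes listed as targets of c-Myb were split in direction, and *Cd34* and *Rag2* did not pass the filter. Of the 11 tested, 5 rose and 5 fell in actB against nB. *Ada*, adenosine deaminase, rose by 2.09 (SE 0.14, limma adjusted p = 3.98e-08) and *Kit*, the stem cell factor receptor, fell by 3.56 (SE 0.18, adjusted p = 2.07e-09). *Kit* is also on the list of erythroid and progenitor markers, and the part of other cells in its level in nB was not tested. Between actB and Pb 3 rose and 7 fell, with a median of -0.66. *Gfi1*, a transcriptional repressor, rose by 2.18 (SE 0.16, adjusted p = 7.98e-08), and the survival gene *Bcl2* fell by 2.05 (SE 0.12, adjusted p = 1.80e-08). Beside the higher level of *Myb* in Pb with GSK343, 1 target rose and 1 fell. These were *Lmo2*, the most abundant of the list in nB and actB, by 0.32 (SE 0.077, adjusted p = 0.0173), and *Ebf1*, a B cell commitment factor, which fell by 0.60 (SE 0.14, adjusted p = 0.0154). Without 1 library these calls were lost in 2 of 6 fits for *Lmo2* and 4 of 6 for *Ebf1*, and the block called 2 targets higher in actB, and 2 higher and 1 lower in Pb. In actB, where *Myb* differed by -0.078, *Gfi1* rose by 0.90 (SE 0.16, adjusted p = 0.00386).

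Of 11 piRNA pathway genes that A-Myb activates in spermatocytes, 1 passed the filter. *Piwil2*, a Piwi protein gene, stood at 0.195 RPKM in nB and 1.60 RPKM in actB with DMSO, a difference of 2.06 (SE 0.13). It reached the filter's RPKM of 1 through cultured libraries alone, so this direction was set by the filter and nothing is read from its call. *Ddx4* reached 0.434 RPKM and the other 9 lay at or below 0.125 RPKM in every group mean. *Piwil2* was not called with GSK343 in actB, with 1.87 RPKM, or in Pb, with 1.81 RPKM with DMSO and 2.19 RPKM with GSK343.

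Of 8 germinal center B cell genes, the setting in which A-Myb is known in B cells, 4 rose and 4 fell in actB against nB. *Gcsam*, counted among those that fell, went from 1.84 to 0.00832 RPKM. Its level in actB lay under the RPKM of 1 that the filter asks for, so the filter favored a fall and nothing is read from its call. In Pb against actB 1 rose, *S1pr2* by 0.73 (SE 0.13, adjusted p = 2.91e-04), and 4 fell. With GSK343 in actB, *Bcl6*, the germinal center repressor, was the single gene called, 0.41 higher (SE 0.099, adjusted p = 0.0227), beside the 0.68 of *Mybl1*. In Pb *Bcl6* rose by 0.71 (SE 0.099, adjusted p = 9.55e-04) and *Rgs13* fell by 0.96 (SE 0.26, adjusted p = 0.0307). The calls of *Bcl6* in actB and *Rgs13* in Pb were each lost in 5 of 6 fits that left out 1 library, and the block called 2 higher and 2 lower in Pb.

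The labelled cell types were checked against their markers. All 9 B cell markers fell from nB to actB and again to Pb, and all 9 plasmablast markers rose in Pb against actB, *Tnfrsf17*, the BCMA receptor, by 5.55 (SE 0.12, limma adjusted p = 1.07e-11). *Sdc1*, which encodes the CD138 used to sort Pb, is among them and is no finding there. In Pb with GSK343, where *Myb* was higher, 4 of the 9 B cell markers fell, among which *Fcer2a* fell by 1.56 (SE 0.25, adjusted p = 0.00217). Of the plasmablast markers *Sdc1* rose by 0.89 (SE 0.11, adjusted p = 5.75e-04) and *Irf4* fell by 0.25 (SE 0.063, adjusted p = 0.0225). The call of *Irf4* was lost in 4 of 6 fits that left out 1 library, and the block called 6 B cell markers lower. The summed level of the B cell markers was 755 to 891 RPKM with GSK343 and 922 to 944 RPKM with DMSO, and that of the plasmablast markers 4950 to 5377 and 4830 to 5066 RPKM. The part of these shifts in the higher *Myb* was not tested.

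The genes with values most like each member were found by the root mean square (RMS) difference of log2(RPKM + 0.25) over the 14 libraries, each gene centered on the mean of its 5 group means. For *Mybl2* they were *Fam64a*, *Kif15*, *Bcat1*, *Gstt3*, and *Psrc1*, at RMS differences of 0.258 to 0.291. *Kif15* and *Psrc1* encode proteins of the mitotic spindle, and *Bcat1* an enzyme of branched-chain amino acid breakdown. For *Mybl1* they were *Kif23*, *Fam72a*, *Car13*, *Arhgap19*, and *Cenpn*, at 0.266 to 0.305, of which *Kif23* is on the G2/M list and *Cenpn* encodes a centromere protein. For *Myb* they were *Amacr*, *Ngfrap1*, *Atp1b3*, *Fn3krp*, and *Tmem129*, at 0.163 to 0.199, where the median over all genes was 0.493 (1.15 for *Mybl1* and 1.61 for *Mybl2*). With a pseudocount of 1 in place of 0.25, 3, 3, and 2 of the 5 genes remained for *Myb*, *Mybl1*, and *Mybl2*. *Mybl1* and *Mybl2* differed from each other by 0.647, with 425 genes closer to *Mybl1* than *Mybl2* was, and 158 closer to *Mybl2* than *Mybl1* was. *Myb* lay farther off, at 1.0 from *Mybl1* and 1.48 from *Mybl2*.

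**Figure D5:**
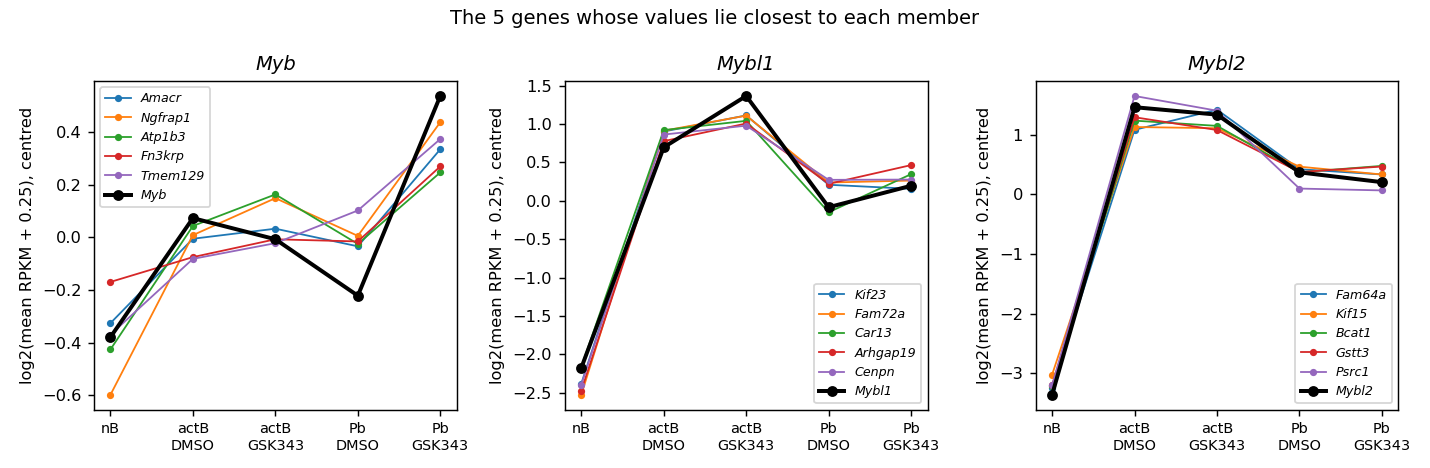
For each member (black), log2(mean RPKM + 0.25) in the 5 groups, centered on its mean over the groups, with the 5 genes of lowest RMS difference (colors); the vertical scales differ between panels. *Myb* spans the smallest range and peaks in Pb with GSK343, whereas *Mybl1* and *Mybl2* rise from nB and peak in actB.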

How the data were processed

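RNA-seq was analysed for 14 libraries in 5 groups. Poly(A) libraries were made with a stranded kit, and the authors mapped reads to mm9 with TopHat2, counted those overlapping exons of Entrez genes with GenomicRanges, and deposited RPM values (reads per 1000000 counted) in a table named for RPKM. Strand use in counting is not given in the sources used here. All RPM values are whole multiples of 1 read within 0.00051 RPM, the rounding of the table, so reads were recovered, and 3 reads equal 0.114 to 0.154 RPM. RPKM is RPM over the deposited gene length. The 92 genes without a symbol, at most 0.0905% of reads, were left out. The study calls its libraries biological replicates, while the labels only number them, and p-values measure the spread between these libraries.

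Genes were kept where 3 or more of the 15 columns reached an RPKM of 1. The fit used limma 3.58.1 (R 4.3.3, trend, two-sided, Benjamini-Hochberg over 11299 genes) on log2(RPKM + 0.25), which understates changes of low genes. Every adjusted p is from this fit. The script was tested on simulated data. The members and lists were chosen with earlier results of these data known. Named were the members, all MuvB and DREAM genes, in each other list the largest called rise and fall and the most abundant gene, and the 5 nearest genes, where a few values are not reported here.

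Deviations from group means were correlated between cultured libraries of different groups. For each number, 6 pairs share it, with r of 0.158 to 0.502 (libraries 1), 0.435 to 0.713 (libraries 2), and 0.219 to 0.356 (libraries 3). The 36 pairs with different numbers had r from -0.603 to 0.370. Only the pairs of libraries 2 all lay above that range, so whether the numbers pair libraries 1 and 3 is not settled. Alternatives were a block for the number, a pseudocount of 1, other filters and scalings, the compared groups alone, all 15 columns, each library left out, and, added after the data were seen, edgeR 4.0.16 on the recovered reads and the cultured libraries numbered 2 left out. Gene positions are GENCODE vM1 (mm9), and promoter windows RefSeq (GRCm38.p6), found for 2 of 3 members.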

Additional observations from a re-analysis of the deposited data

Results flagged for a closer look

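The effect of GSK343 on *Myb* in Pb minus that in actB, the interaction term, was 0.83 on the log2 scale (SE 0.12). The ratio was 1.58 to 1.84 in the 3 same-number pairs of Pb libraries and 0.917 to 0.992 in those of actB. The family was proposed with these values known, the Pb libraries with GSK343 carry Il6 in the place of Il5 in their stimulation label, and 9 of 12 fits without 1 library did not call it.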

How the results depend on the processing

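Counts of called genes moved by over 1.5 times only in the 3 comparisons with GSK343. With the compared groups alone, 386 genes were called in actB and 4 for the difference between the cell types, and with the replicate block 2248 in actB, 2626 in Pb, and 139 for that difference. The difference between the cell types called 48 genes with all 15 columns and 146 with the cultured libraries numbered 2 left out. Leaving out 1 library gave 608 to 1363 genes in actB, 690 to 1304 in Pb, and 0 to 58 for the difference, where the 5 fits at 0 had 758 to 907 genes at an unadjusted p under 0.05 in limma and edgeR on all 14 libraries called 31.

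*Myb* in Pb against actB was not called with median scaling (-0.18), and in Pb against nB it was called with the replicate block (0.16) and with the libraries numbered 2 left out (0.22). Its difference between the GSK343 effects was not called with the compared groups alone (0.83) and ran from 0.75 to 0.89 without 1 library. *Mybl1* with GSK343 in actB was called with the 3 RPM filter, the replicate block, and all 15 columns (0.68 each), without the libraries numbered 2 (0.62), and by edgeR (0.65), and ran from 0.43 to 0.86 without 1 library. *Mybl2* in the difference between the effects ran from -0.11 to 0.042 without 1 library and was above 0 without actB DMSO library 2 (0.030), actB GSK343 library 1 (0.024), or Pb DMSO library 3 (0.042). The block changed no other call of a member. Of 69 differences of named list genes, 49 were called under every alternative. The cause of these changes was not tested. Where a group was left with 1 library, it was assumed to vary like the other groups, and depth limits the genes near 3 reads.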
